A study of Mus musculus with 46 samples.

Results

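The levels of 8 activity-regulated secretory genes were followed through the left hippocampus of mouse pups: Vgf, Bdnf, Scg2, Nptx2, Chga, Chgb, Pcsk1 and Inhba. They were picked by symbol from a table of 52636 genes, and all 8 are in that table. Vgf was in the choice because it was among the largest increases between limited bedding and control pups. Other members were probably chosen with that comparison in view too. Every value of that comparison below is therefore a description of the members and no test of them. RNA was sequenced in 46 libraries, 1 per pup, from Balb/cByj mice at postnatal day 17. The groups were 16 pups raised with limited bedding (LB, 7 males and 9 females), 15 raised under unpredictable postnatal stress (UPS, 8 males and 7 females) and 15 raised under control conditions (CTL, 6 males and 9 females). LB dams had little corncob bedding and no nestlet, whereas CTL dams had ample bedding and a nestlet. The UPS procedure is not described in the paper, and only the label names it. No pup carried a transgene or deletion, and all of them were anaesthetised with chloral hydrate before dissection. The study asked how early rearing changes gene expression in the developing hippocampus. The paper states fewer litters than pups, and no label gives a pup's litter, so all p-values treat littermates as independent.

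Neurons store many of their peptides and growth factors in dense-core vesicles, which fuse with the membrane when firing raises calcium. Chga, Chgb and Scg2 encode granins, acidic proteins that pack the vesicle core, and Vgf encodes a granin-like precursor that is cut into neuroactive peptides. Pcsk1 encodes prohormone convertase PC1/3, which cuts such precursors. Bdnf encodes the neurotrophin that signals through TrkB, Inhba the subunit of activin A, a ligand of the TGF-beta family, and Nptx2 a secreted pentraxin that gathers AMPA receptors at excitatory synapses on interneurons. In neurons, calcium entry activates kinases that phosphorylate CREB, a factor that binds the cAMP response element (CRE), and transcription of Vgf, Bdnf, Nptx2, Inhba, Scg2 and Pcsk1 is known to rise with activity. This background is not a result of these data.

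The CRE letters are shown here because they are a sequence that several of these genes share. The genes were chosen as activity-regulated, and CREB acts in that response. A share above that of all genes is therefore no independent result. RefSeq promoters of GRCm38.p6, running from 250 bases before a gene's start to 50 bases from the start on, were at hand for 6 of the 8 genes, with 7 starts for Bdnf and 1 for each of the others. The full element TGACGTCA, which reads the same on both strands, was present in Scg2, Chgb and Pcsk1, or 3 of 6 genes. Of all 27025 genes with a promoter in the same table, 2.03% had it. Its first base lay 68 bases before the start in Scg2, 72 in Chgb and 78 in Pcsk1. The shorter TGACG, on either strand and including the full element, was found in 5 of 6 genes, as in 23.0% of all genes. It lay 44 bases before the start in Chga, 35 before 1 of the starts of Bdnf and a second time, at 50 bases, in Pcsk1. Bdnf, with 7 starts, had more chances of a match than a gene with 1. Inhba held neither. No member promoter held the AP-1 letters TGACTCA (5.95% of all genes) or the EGR letters GCGTGGGCG (0.707% of all genes) on either strand. Vgf and Nptx2 are named only. In the sequences below, each read 5′ to 3′ on the gene's strand, capitals mark TGACGTCA or TGACG, or in Bdnf CGTCA, which is TGACG on the opposite strand. The longer runs end at the base before the start.
Scg2, chr1:79440076-79440105, minus strand: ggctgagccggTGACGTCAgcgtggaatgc
Chgb, chr2:132781559-132781588, plus strand: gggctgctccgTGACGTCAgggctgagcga
Pcsk1, chr13:75089768-75089797, plus strand: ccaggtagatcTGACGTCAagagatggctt
Chga, chr12:102554821-102554940, plus strand: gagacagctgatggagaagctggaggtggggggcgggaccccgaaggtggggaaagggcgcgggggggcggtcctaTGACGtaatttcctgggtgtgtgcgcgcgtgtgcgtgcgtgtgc
Bdnf, at that start, chr2:109692316-109692435, plus strand: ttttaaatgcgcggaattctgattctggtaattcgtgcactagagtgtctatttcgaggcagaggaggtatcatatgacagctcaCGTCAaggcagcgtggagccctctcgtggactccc
The GENCODE annotation of the same genome starts Scg2 and Chgb farther upstream, so their elements lie inside annotated exons there, whereas those of Pcsk1, Chga and Bdnf do not. A match is a description of letters and not a shown binding site.

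By the GENCODE annotation, Vgf lies on chromosome 5 from 137026392 to 137033351 and Nptx2 on the same chromosome from 144545902 to 144557478. Inhba (16011851 to 16031621) and Pcsk1 (75089826 to 75134861) are both on chromosome 13, and Bdnf (109674700 to 109727007) and Chgb (132781278 to 132795079) on chromosome 2. Scg2 is on chromosome 1 from 79434669 to 79440120, the only one of the 8 on the minus strand, and Chga on chromosome 12 from 102554969 to 102565028.

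Levels are given as TPM, reads per transcript length scaled to the same total in every library. TPM keeps no read depth, so the counting error of single values is unknown. Xist lay at 113 to 206 TPM in the 25 libraries labelled female and Ddx3y at 30.04 to 54.2 TPM in the 21 labelled male, with Ddx3y at 0 in every female library and Xist at 0.0319 TPM or less in every male one. The hippocampal neuron genes Neurod6 (242 to 446 TPM) and Prox1 (41.8 to 103 TPM) were present in every library. The choroid plexus gene Ttr ran from 0 to 2500 TPM between libraries. The female UPS pup 2 stood apart, with a median correlation of 0.94 to the other libraries on the log2 scale, against 0.97 or more for each of the others. The female UPS pup 1 is titled UPS but carries an LB characteristic, and was kept as UPS. The female CTL and LB pups numbered 9 carry, in the table's header, earlier numbers that are missing among the males. The paper states more males and fewer females in CTL and in LB than the labels give. Its group sizes are those reached when the pups numbered 9 are counted as males. No 2 libraries held identical values.

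All 8 genes were above 0 in every pup and all passed the filter on low values. Chgb was the most abundant, with a mean of 705 TPM over all pups, ahead of Scg2 at 233 TPM, Vgf at 144 TPM and Chga at 130 TPM. Nptx2 averaged 44.1 TPM, Bdnf 36.4 TPM, Pcsk1 22.4 TPM and Inhba 5.78 TPM. Chgb lay above Scg2, Chga above Nptx2, Bdnf above Pcsk1 and Pcsk1 above Inhba in 46 of 46 pups. The other neighbours did not keep 1 order, since Scg2 lay above Vgf in 42 pups, Nptx2 above Bdnf in 32 and Vgf above Chga in 19. With both sexes pooled, Vgf was also the most variable of the 8 between pups of a rearing. Its SD was 31.7% of the mean in LB, 40.7% in UPS and 29.4% in CTL. Bdnf varied least in LB, at 8.76%, and in CTL, at 8.29%, and Chgb in UPS, at 9.51%. In CTL males alone, the SD of Vgf was 8.91% of the mean, against 39.2% in CTL females. Among those males Inhba (19.5%) and Pcsk1 (15.5%) varied most, and only Chga and Bdnf varied less than Vgf.

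**Figure D1:**
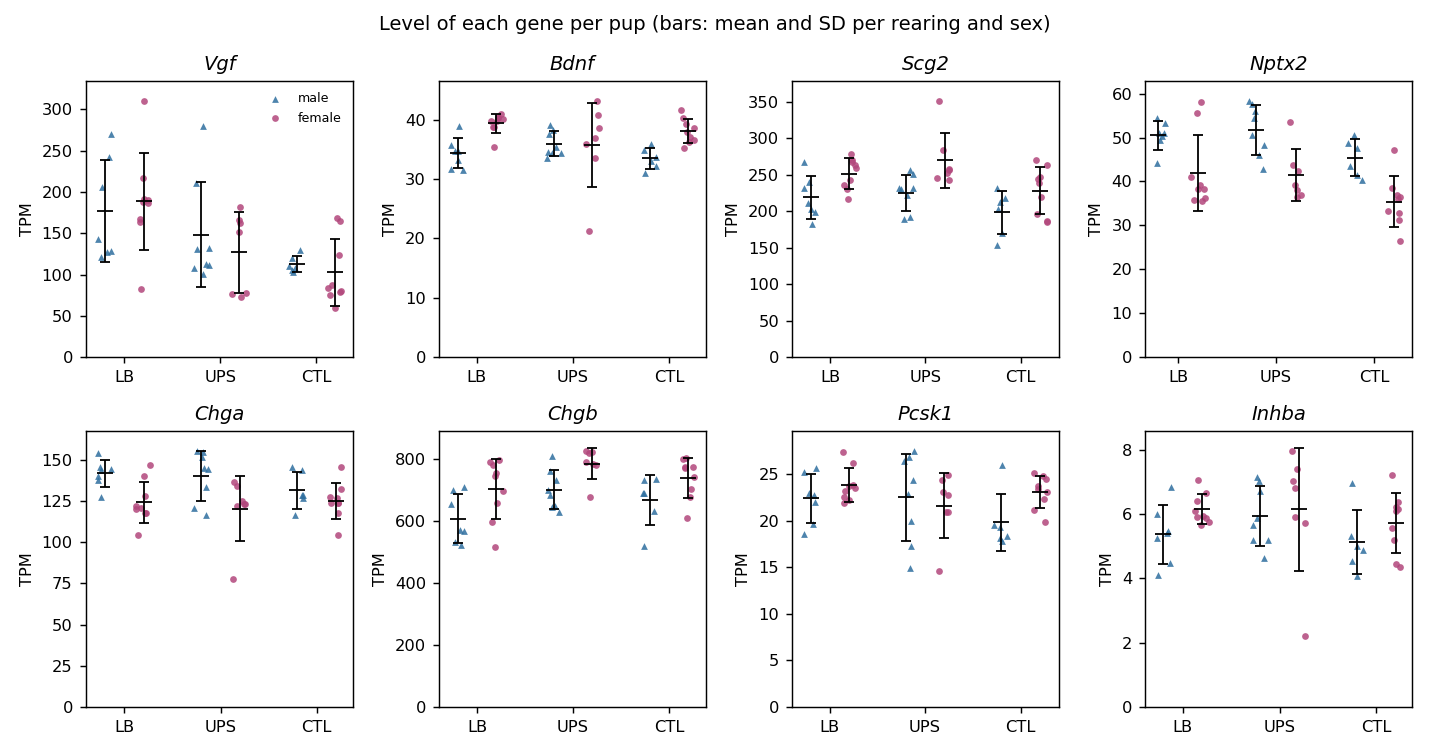
TPM of each of the 8 genes in every pup, by rearing (LB, UPS, CTL) and sex (triangles, males, on the left of each pair; circles, females), with the mean and SD of each rearing and sex. Vgf spans 82.8 to 309 TPM in LB pups and 59.9 to 169 TPM in CTL pups, and the female UPS pup 2 is the lowest point for Bdnf, Chga, Pcsk1 and Inhba.

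LB pups had more Vgf than CTL pups, and the other 7 genes differed by far less. The median difference of the 8 genes was 0.09 on the log2(TPM + 1) scale, against 0.01 over all 13244 genes tested, and 7 of the 8 differences were positive. The test was limma with 4 group means, in which males and females weigh equally in the difference and p-values are adjusted by the Benjamini-Hochberg method over all genes. It called 1 of the 8 genes, higher, beside 7.54% of all genes tested (3.71% higher and 3.84% lower). Since Vgf and probably other members were chosen with this comparison in view, nothing is read from that count.

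Vgf had a lowest, median and highest level of 82.8, 187 and 309 TPM in the 16 LB pups, against 59.9, 106 and 169 TPM in the 15 CTL pups. The groups overlapped, but 9 of 16 LB pups lay above the highest CTL pup and 15 of 16 above the CTL mean of their own sex. Its mean was 183 ± 58.2 TPM in LB (SD, n = 16) and 106 ± 31.3 TPM in CTL (SD, n = 15), a log2 difference of 0.74 (standard error 0.16, adjusted p = 0.0049 from limma), or 1.67-fold. By size of increase it ranked 9 among all genes tested. The spread within groups was uneven. Among CTL females, 6 pups lay at 59.9 to 87.2 TPM and the other 3 at 123 to 169 TPM, while the 6 CTL males lay close together at 103 to 129 TPM. Among LB females, 1 pup lay at 82.8 TPM and the other 8 at 164 to 309 TPM. LB males had 4 pups at 122 to 144 TPM and 3 at 205 to 270 TPM. The log2 difference was 0.58 in males (standard error 0.24) and 0.89 in females (standard error 0.20). Leaving out any 1 library gave a log2 difference of 0.68 to 0.81.

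Nptx2 came next in size. It had 35.5, 46.8 and 58.2 TPM (lowest, median and highest) in LB pups, against 26.4, 38.6 and 50.6 TPM in CTL pups, with 15 of 16 LB pups above the CTL mean of their sex. In limma its log2 difference was 0.19 (standard error 0.07, adjusted p = 0.088), and without the female CTL pup 9 it was 0.22 with an adjusted p of 0.041. Scg2 had 182, 238 and 278 TPM in LB pups, against 154, 218 and 271 TPM in CTL pups, and a log2 difference of 0.15 (adjusted p = 0.16 from limma). Pcsk1, the convertase, had 18.6, 23.1 and 27.4 TPM in LB pups and 17.8, 22.4 and 26.0 TPM in CTL pups. Its log2 difference was 0.11 (adjusted p = 0.20 from limma), and 0.15 with an adjusted p of 0.037 without the male CTL pup 5, the highest of the CTL pups. Chgb was the only one with a negative difference, of -0.11 (adjusted p = 0.32 from limma), at 663 ± 99.8 TPM in LB (SD, n = 16) and 712 ± 78.0 TPM in CTL (SD, n = 15). Inhba, Chga and Bdnf had log2 differences of 0.08, 0.05 and 0.04, with 95% intervals that include 0. For Bdnf the interval ran only to 0.10.

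**Figure D2:**
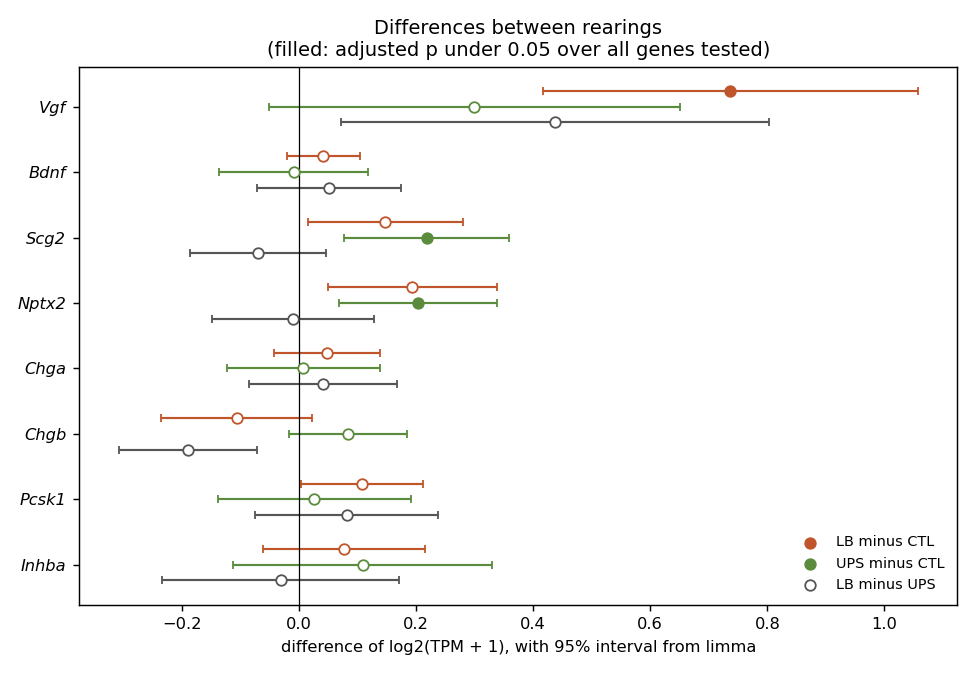
Difference of log2(TPM + 1) for each of the 8 genes (x axis) with its 95% interval from limma, for LB minus CTL, UPS minus CTL and LB minus UPS, with filled points at an adjusted p under 0.05. The Vgf difference of 0.74 between LB and CTL stands well to the right of all others, and no LB minus UPS point is filled.

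UPS pups had more Scg2 and Nptx2 than CTL pups, and both differences were small. Of the 8 genes, limma called 2, both higher, beside 5.59% of all genes tested called higher and 4.44% called lower. The median difference of the 8 was 0.10, against 0.00 over all genes. This comparison uses the same CTL pups as the one on which Vgf and probably other members were chosen. Nothing is therefore read from the count of calls.

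Scg2, a granin that is also the precursor of secretoneurin, had 189, 246 and 351 TPM (lowest, median and highest) in the 15 UPS pups, against 154, 218 and 271 TPM in the 15 CTL pups. The groups overlapped, with 2 UPS pups above the highest CTL pup and 13 of 15 above the CTL mean of their sex. The log2 difference was 0.22 (standard error 0.07, adjusted p = 0.042 from limma). Nptx2, the pentraxin, had 36.5, 46.1 and 58.2 TPM in UPS pups, against 26.4, 38.6 and 50.6 TPM in CTL pups. Of the 15 UPS pups, 6 lay above the highest CTL pup and 14 above the CTL mean of their sex. The log2 difference was 0.20 (standard error 0.07, adjusted p = 0.047 from limma). Both calls lay close to the threshold. Leaving out 1 library ended the Scg2 call in 14 of 30 cases, with adjusted p up to 0.090 (without the male CTL pup 7), and the Nptx2 call in 20 of 30, with adjusted p up to 0.078 (without the male CTL pup 6). The log2 differences themselves stayed between 0.18 and 0.24 for Scg2 and between 0.17 and 0.23 for Nptx2. With no filter on low values, the adjusted p was 0.098 for Scg2 and 0.10 for Nptx2. Without the female UPS pups 1 and 2 together, it was 0.053 for Scg2 and 0.055 for Nptx2.

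Vgf did not pass between UPS and CTL. It had 72.3, 131 and 280 TPM in UPS pups, against 59.9, 106 and 169 TPM in CTL pups, and a log2 difference of 0.30 (95% interval -0.05 to 0.65, adjusted p = 0.26 from limma). UPS females split as CTL females did, with 3 pups at 72.3 to 77.9 TPM and 4 at 152 to 182 TPM. In UPS males, 6 pups lay at 101 to 132 TPM and the others at 211 and 280 TPM. Inhba had a log2 difference of 0.11 (adjusted p = 0.55 from limma), and the female UPS pup 2 lay at 2.21 TPM where the other 14 UPS pups lay at 4.65 to 7.96 TPM. Without the female UPS pups 1 and 2 it was 0.22 with an adjusted p of 0.049. Chgb had a log2 difference of 0.08 (adjusted p = 0.28 from limma), Pcsk1 of 0.03 (adjusted p = 0.86), Chga of 0.01 (adjusted p = 0.95) and Bdnf of -0.01 (adjusted p = 0.94). The Bdnf value took the opposite sign, 0.05, without the female UPS pup 2, whose 21.2 TPM was the lowest of all 46 pups.

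Between LB and UPS directly, none of the 8 genes passed in limma, beside 0.0453% of all genes tested, and 2 of the 8 had an unadjusted p under 0.05. These were Vgf and Chgb, both named after their values were seen. The LB pups here are those on which Vgf and probably other members were chosen. Vgf had a log2 difference of 0.44 (standard error 0.18, 95% interval 0.07 to 0.80, adjusted p = 0.32 from limma), so the larger Vgf level of LB pups was not shown to differ from that of UPS pups. Chgb had 518, 680 and 798 TPM (lowest, median and highest) in LB pups, against 631, 763 and 827 TPM in UPS pups, a log2 difference of -0.19 (standard error 0.06, 95% interval -0.31 to -0.07, adjusted p = 0.19 from limma). Within females, the female UPS pup 1, whose labels disagree, had the lowest Chgb of the UPS females, at 680 TPM, where the other 6 lay at 781 to 827 TPM. For Scg2 and Nptx2, the genes called in UPS, the differences between LB and UPS were -0.07 (95% interval -0.19 to 0.05) and -0.01 (95% interval -0.15 to 0.13). The other 4 genes had differences between -0.03 and 0.08, with intervals that include 0.

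Sex went with the level of 5 of the 8 genes, beside 50.1% of all genes tested over the 46 libraries. Nptx2 was higher in males (log2 difference 0.32, standard error 0.06, adjusted p = 9.3e-06 from limma), as was Chga (0.17, adjusted p = 0.0031). Scg2 (-0.22, adjusted p = 5.8e-04), Chgb (-0.18, adjusted p = 0.0019) and Bdnf (-0.11, adjusted p = 0.028) were lower in males. Vgf, Pcsk1 and Inhba did not pass. Nptx2 lay at 44.2 to 54.4 TPM in LB males against 35.5 to 58.2 TPM in LB females. It lay at 42.7 to 58.2 TPM in UPS males against 36.5 to 53.5 TPM in UPS females, and at 40.2 to 50.6 TPM in CTL males against 26.4 to 47.2 TPM in CTL females. The 2 females numbered 9 were the highest of their groups for Nptx2, at 58.2 TPM in LB and 47.2 TPM in CTL. Counting both with the males left 4 of the 5 calls in place and gave Bdnf an adjusted p of 0.056 in limma. The adjusted p fell to 1.6e-08 for Nptx2, 4.6e-04 for Chga and 1.2e-04 for Chgb, and rose to 0.0045 for Scg2. Of all genes tested, 53.5% were then called, against 50.1% as labelled. With so large a share of all genes called, sex and any handling that went with it cannot be told apart. The rearing effect itself was not shown to differ between the sexes for any of the 8 genes, with interaction p-values from 0.072 to 0.98 before adjustment and of at least 0.96 after it in limma. No gene of the 13244 passed an interaction test (0.00%), with 293 for LB against CTL, 488 for UPS against CTL and 306 for LB against UPS at an unadjusted p under 0.05.

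Within rearing and sex groups, the 8 genes did not move as 1 block. The correlations were taken over the 46 pups, between residuals of log2(TPM + 1) from the 6 group means, and are descriptions of libraries that share their preparation and scaling. The median of the 28 pairs was 0.04 over all 46 pups. Chga and Pcsk1 went together, with a Pearson r of 0.72 (Spearman 0.64), and of 0.62 without the female UPS pup 2. It was 0.38 in LB, 0.87 in UPS and 0.54 in CTL pups. Bdnf and Inhba had an r of 0.75 (Spearman 0.53), which was 0.42 without the female UPS pup 2. The r of 0.53 between Bdnf and Chga rested on that pup, since it was 0.03 without it. Vgf, Scg2 and Nptx2 formed a looser group, with r of 0.44 for Vgf and Nptx2, 0.40 for Vgf and Scg2 and 0.41 for Scg2 and Nptx2, and 0.41, 0.37 and 0.33 without the same pup. Vgf and Bdnf had an r of -0.02, and 0.19 without it. Further pairs moved in both directions when that pup was left out. The r of Scg2 with Chga went from 0.03 to 0.36 and that of Bdnf with Scg2 from -0.14 to 0.29. The r of Chga with Inhba went from 0.38 to -0.15. Chgb, the most abundant granin, had r between -0.19 and 0.20 with every other member over all pups. With Bdnf, however, its r of 0.20 (Spearman 0.40) became 0.45 without the female UPS pup 2. That r was 0.43 in LB, 0.02 in UPS and 0.54 in CTL pups.

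**Figure D3:**
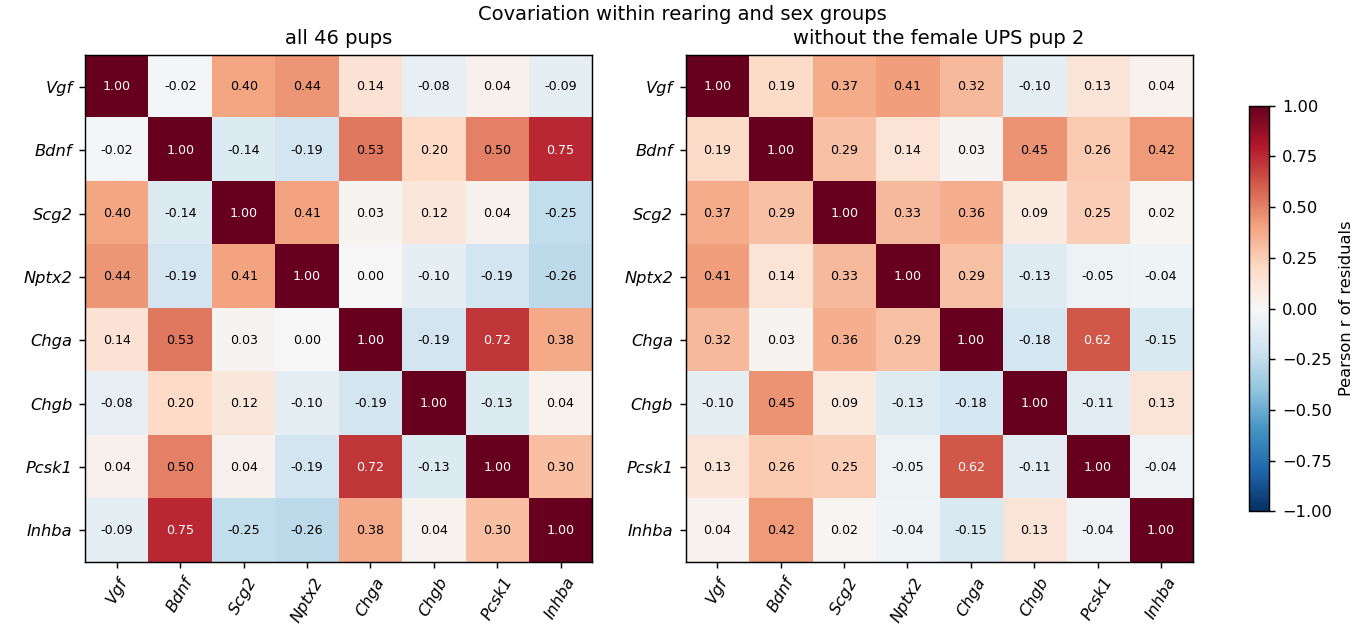
Pearson r between the residuals of log2(TPM + 1) of each pair of the 8 genes, over all 46 pups (left) and without the female UPS pup 2 (right), on a colour scale of -1 to 1. Chga with Pcsk1 stays high at 0.72 and 0.62, whereas Bdnf with Chga goes to 0.03 when that pup is left out.

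The genes whose residuals were most like those of Vgf were not its fellow secretory genes. By the same measure over 46 pups, Klhl21, an adaptor of a ubiquitin ligase, had the highest r at 0.68. Mfn2, which joins mitochondrial outer membranes, had 0.60, the dipeptidase Cndp2 0.59 and the Numb-like protein Numbl 0.59. Btbd6, Lrp11, Eif3d, Aaas, Thoc3 and Pcbp3 followed at 0.56 to 0.58. Klhl21 kept an r of 0.79 in LB, 0.70 in UPS and 0.47 in CTL pups. Among 13243 other genes tested, Nptx2 ranked 183 and Scg2 381 by likeness to Vgf, while Bdnf ranked 8327 and Inhba 9826.

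The counts of the lists below stand beside 3.71% of all genes tested called higher and 3.84% lower in LB, and 5.59% higher and 4.44% lower in UPS. The lists were chosen with earlier results of these data known, so their counts are descriptions and no tests. Of 28 tested genes of dense-core vesicle machinery, 1 was higher and 1 lower in LB, and 2 were higher and 1 lower in UPS, with medians of 0.01 and 0.04. Cadps2, a protein that primes dense-core vesicles, was higher in both, by 0.18 in LB and 0.19 in UPS on the log2 scale (adjusted p = 0.031 and 0.022 from limma). Cpe, the carboxypeptidase that trims precursors after the convertases, was lower in LB (-0.09, adjusted p = 0.022 from limma), at 3331 ± 216 TPM in LB (SD, n = 16) and 3530 ± 135 TPM in CTL (SD, n = 15). In UPS, the granin family member Scg3 was higher (0.11, adjusted p = 0.030 from limma), and Pcsk1n, which encodes the inhibitor proSAAS of the Pcsk1 convertase, was lower (-0.35, adjusted p = 0.0073). Its level was 206 ± 73.7 TPM in UPS (SD, n = 15) and 241 ± 91.5 TPM in CTL (SD, n = 15).

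Genes for receptors and partners of the secreted proteins passed in both directions. Of 10 tested genes of BDNF receptors and processing, 2 were lower in LB and none passed in UPS in limma, where none had an unadjusted p under 0.05 either. Ntrk2, which encodes the BDNF receptor TrkB, was lower in LB by a small amount (-0.08, adjusted p = 0.039 from limma), and so was the convertase gene Pcsk6 (-0.15, adjusted p = 0.022). Of 12 tested genes of the activin and follistatin axis, 2 were higher and 1 lower in each comparison. Inhbb, the subunit of activin B, was higher in LB (0.22, adjusted p = 0.022 from limma) and in UPS (0.19, adjusted p = 0.029). Fstl1, a follistatin-like secreted protein, was higher in LB (0.23, adjusted p = 0.0064 from limma), and Acvr1b, an activin receptor, was higher in UPS (0.13, adjusted p = 0.024). Smad3, which carries the activin signal to the nucleus, was lower in LB (-0.18, adjusted p = 0.018 from limma), and the inhibitory Smad7 was lower in UPS (-0.26, adjusted p = 0.010). Among 8 pentraxin and AMPA receptor partners, the synaptic C1q-like gene C1ql2 was lower in LB (-0.41, adjusted p = 0.0032 from limma) and in UPS (-0.36, adjusted p = 0.0045). C1ql3 was lower in LB (-0.23, adjusted p = 0.019 from limma). C1ql2 is also a marker of dentate granule neurons.

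Genes of the pathway that links firing to transcription passed in both directions. Of 24 immediate early genes, 2 were higher in LB, and 2 were higher and 3 lower in UPS, with medians of 0.04 and -0.01. In LB these were Nr4a3, a nuclear receptor (0.16, adjusted p = 0.026 from limma), and Sik1, a kinase that restrains CREB coactivators (0.24, adjusted p = 0.047). In UPS, Fos was higher (0.39, adjusted p = 0.036 from limma), with 17.5 ± 5.11 TPM in UPS and 13.1 ± 3.34 TPM in CTL (SD, n = 15 each), as was Fosb (0.32, adjusted p = 0.0045). Jun (-0.17), Jund (-0.22) and Nr4a1 (-0.24) were lower in UPS, with adjusted p of 0.039, 0.034 and 0.039 in limma. Of 18 tested genes of the CREB pathway, Camk4, a nuclear kinase that phosphorylates CREB, was higher in LB (0.34, adjusted p = 0.0057 from limma) and in UPS (0.39, adjusted p = 4.2e-04). Crtc1, a CREB coactivator, was lower in both (-0.16 in LB and -0.21 in UPS, adjusted p = 0.0075 and 0.0049 in limma). Camk2a was lower in LB (-0.11, adjusted p = 0.013 from limma), and Crem, a relative of CREB, was higher in UPS (0.28, adjusted p = 0.017).

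A further list held 20 other activity-regulated genes and secreted peptides, so not every gene in it encodes a secreted peptide. Of the 20, 5 were higher and 1 was lower in LB, with a median of 0.13. Of all genes tested, 3.71% were higher and 3.84% lower. Because this list too was chosen with earlier results known, nothing is read from that count. In UPS, 1 of the 20 was higher and 1 lower, with a median of 0.00, beside 5.59% and 4.44%. Tac1, the substance P precursor, was at 35.2 ± 5.36 TPM in LB (SD, n = 16) and 24.4 ± 4.35 TPM in CTL (SD, n = 15), a log2 difference of 0.52 (adjusted p = 0.0011 from limma). Nts (0.66), Cort (0.59) and Igf1 (0.28) were also higher in LB, with adjusted p of 0.017, 0.044 and 0.014 in limma, and Crh (0.33) with 0.0496. Pdyn, the dynorphin precursor, was lower (-0.42, adjusted p = 0.032 from limma). In UPS, Igf1 was higher (0.27, adjusted p = 0.015 from limma) and Cck lower (-0.28, adjusted p = 0.020). No gene of these lists passed between LB and UPS in limma, where each list held 0 to 7 genes at an unadjusted p under 0.05, so none of them was shown to differ between LB and UPS.

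**Figure D4:**
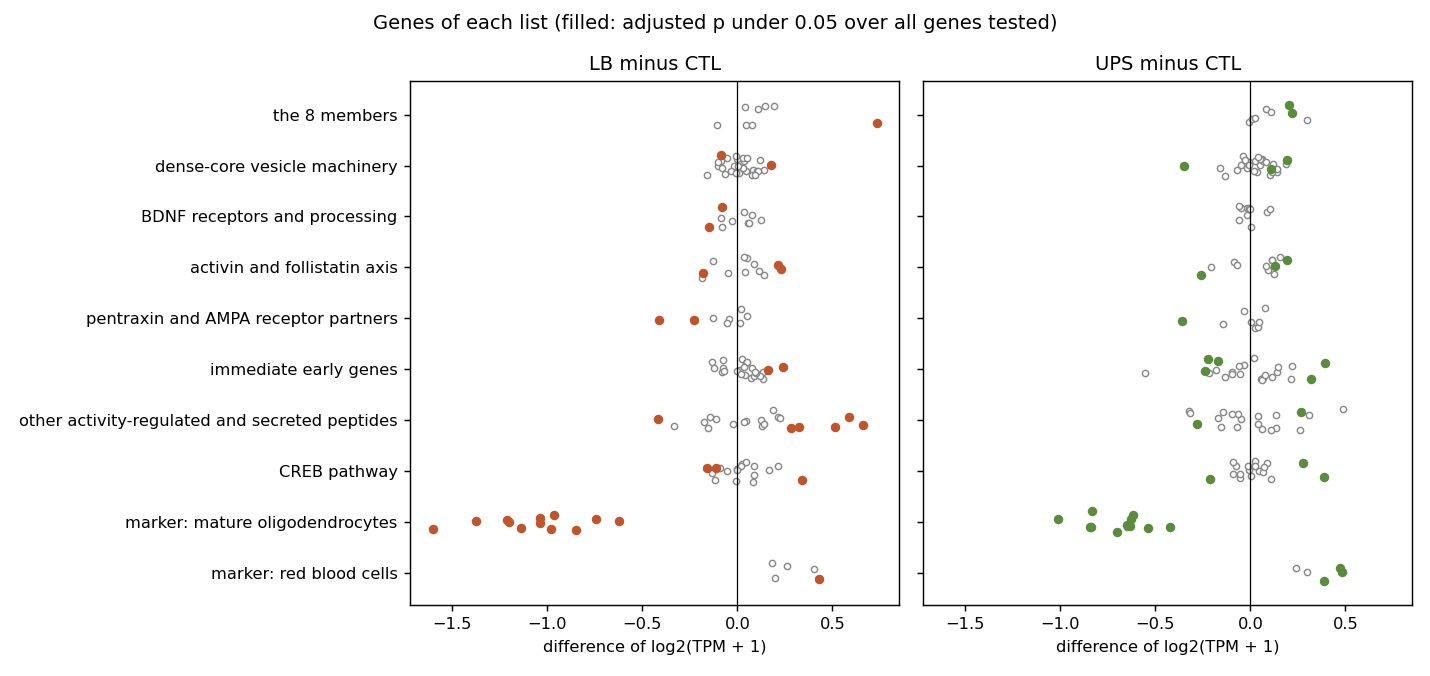
Difference of log2(TPM + 1) of each tested gene (points) in each list (rows), for LB minus CTL on the left and UPS minus CTL on the right, with filled points at an adjusted p under 0.05 in limma. Genes of the secretory and activity lists scatter on both sides of 0, whereas the 12 oligodendrocyte markers lie to the left in both, 12 of them filled in LB and 11 in UPS.

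Markers of other cell types moved with rearing too. In bulk RNA, fewer cells of a type and less RNA per cell cannot be told apart. All 12 markers of mature oligodendrocytes were lower in LB, with a median log2 difference of -1.04, and 11 of 12 in UPS, with a median of -0.65. Their summed level ran from 646 to 3812 TPM in LB, from 1253 to 4469 TPM in UPS and from 1832 to 5589 TPM in CTL pups, and none of the 12 was at 0 throughout. With TPM recomputed without these markers, the Vgf difference between LB and CTL was 0.73, against 0.74 with them. The markers hold at most 5589 TPM in a pup, so this rescaling could hardly move the value. It checks the TPM total only and says nothing about cell composition. The 8 markers of all neurons summed to 4308 to 5240 TPM in LB, 4218 to 5552 TPM in UPS and 4278 to 4882 TPM in CTL pups, and of these Stmn2 was higher in LB (0.32) and in UPS (0.25), Tubb3 higher in LB (0.25) and Eno2 lower in LB (-0.21). The 8 dentate granule neuron markers had a median of -0.16 in LB, with C1ql2 and Plk5 lower. Of 8 markers each, interneurons had Reln higher (0.38 in LB, 0.29 in UPS) and Pvalb lower (-0.54 in LB, -0.34 in UPS), pyramidal neurons had Neurod6 higher in UPS (0.16), and astrocytes had 1 higher and 2 lower in LB and 1 lower in UPS. Of 5 red blood cell genes, 1 was higher in LB and 3 were higher in UPS. No marker of microglia, endothelial cells, choroid plexus or thalamus passed in either comparison in limma, and each of these lists had at most 2 genes at an unadjusted p under 0.05 in a comparison. For choroid plexus, 4 of 6 genes were tested. Its summed level varied widely between pups, from 8.29 to 2577 TPM in LB, 15.2 to 1411 TPM in UPS and 10.1 to 674 TPM in CTL. The absence of a call there therefore says little. The part of these cell types in the levels of the 8 genes was not tested.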

How the data were processed

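RNA from the left hippocampus of 46 pups was converted into poly(A)-selected libraries and sequenced by the authors, with RIN above 9 per the labels. The submitters' processing notes name HISAT2, StringTie and DESeq2 and the mm10 genome, with tool versions and gene annotation release not given in the sources used here. Deposited by the authors were TPM per gene for all libraries, and tables of their own DESeq2 fold changes and p-values, which were not used. The genes and lists were chosen with earlier results of these data known.

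Libraries were grouped by rearing and sex from their titles. The filter kept the 13244 genes whose mean TPM reached 3 in 1 or more of the rearings, and Cav2 was left out for a cell that is not a number. Values were tested as log2(TPM + 1), a scale that shrinks differences of weakly expressed genes. The study used DESeq2 on counts, which TPM does not allow, so limma 3.58.1 (R 4.3.3) was fitted to 4 group means with a variance trend and Benjamini-Hochberg adjustment at 0.05. The fit was tested on simulated data. Levels, correlations and promoters were computed in Python 3.11.15. Named were all 8 genes, the 10 genes most like Vgf (predicted genes left out), and per list up to 5 genes past the threshold in each comparison, with marker lists given by counts. Alternatives were other pseudocounts, filters, scalings, models and samples, and each library left out in turn. TPM holds no depth, so no counting interval was given.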

Additional observations from a re-analysis of the deposited data

Results flagged for a closer look

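In each of the 48 sets formed by 8 genes and 6 rearing and sex groups, the highest and the lowest pup were set against Dixon's 95% critical value, which chance passes in about 1 of 20 groups. It was passed in 8 sets. Of these, 5 belong to the female UPS pup 2, with Scg2 at 351 TPM and Nptx2 at 53.5 TPM above the other UPS females and Chga at 77.7 TPM, Pcsk1 at 14.6 TPM and Inhba at 2.21 TPM below them. The female UPS pup 1, whose title and characteristic disagree, was the lowest UPS female for Chgb at 680 TPM. The female LB pup 1 was the lowest of its group for Bdnf at 35.4 TPM, and the male CTL pup 5 was the highest of its group for Pcsk1 at 26.0 TPM.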

How the results depend on the processing

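The Vgf difference between LB and CTL passed under each of 14 alternatives fitted over both sexes, at 0.67 to 0.76 (adjusted p 0.0026 to 0.016 in limma), and in all 31 fits without 1 library (0.0016 to 0.011). It did not pass in males only (0.58, adjusted p = 0.18) or in females only (0.89, adjusted p = 0.15), fits with fewer pups. All these fits use the pups on which Vgf was chosen, so they show dependence on processing and are no independent test.

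Beside the 1 gene of the 8 called between LB and CTL, Nptx2 passed as well, giving 2, with the replicate block, with library weights, without the number 9 females and with these counted as males, and 0 of the 8 passed in males only or females only. Leaving out 1 library gave 1 to 2. Between UPS and CTL, 2 of the 8 were called. There were 0 with no filter on low values, with rearing alone, in males only and in females only. There was 1, Scg2, with size factors and with no variance trend. There was 1, Nptx2, with library weights, the replicate block and the number 9 females counted as males. With the female UPS pups 1 and 2 left out, the 1 called was Inhba, and neither Scg2 nor Nptx2 passed. Leaving out 1 library gave 0 to 2. Without the female UPS pup 2, Nptx2 had an adjusted p of 0.054.

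Over all genes, 999 were called between LB and CTL, against 650 with no filter, 579 with rearing alone, 1676 with library weights, 13 in males only, 0 in females only and 677 to 1581 without 1 library (1581 without the male LB pup 5). Between UPS and CTL, 1329 were called, against 254 with rearing alone, 2626 with library weights, 16 in males only, 12 in females only, 2002 without the female UPS pups 1 and 2, and 913 to 2169 without 1 library (2169 without the female UPS pup 2). Between LB and UPS, 6 were called, against 14 without mitochondrial genes, 24 in 1 fit of 46 libraries, 98 with library weights, 1 with rearing alone, 2 in males only, 0 in females only, 12 without the female UPS pups 1 and 2, and 4 to 22 without 1 library. The causes were not tested.

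Signs changed only for differences near 0, and none of these passed in the fits concerned. Between LB and CTL, Chga was at -0.014 in females only. Between UPS and CTL, Bdnf was at 0.0070 with the replicate block, 0.028 with library weights, 0.098 in males only and 0.066 without the female UPS pups 1 and 2, and Chga (-0.072) and Pcsk1 (-0.10) were below 0 in females only. Between LB and UPS with library weights, Bdnf was at -0.00070, Nptx2 at 0.0033 and Chga at -0.012. Without the female UPS pups 1 and 2, Bdnf was at -0.025, Nptx2 at 0.012 and Chga at -0.014. Bdnf was at -0.062 in males only, and Nptx2 (0.0080) and Inhba (0.061) were above 0 in females only. Without 1 library, the ranges that cross 0 were -0.034 to 0.049 for Bdnf and -0.010 to 0.058 for Chga between UPS and CTL. Between LB and UPS they were -0.0073 to 0.075 for Bdnf, -0.040 to 0.021 for Nptx2, -0.0096 to 0.058 for Chga and -0.12 to 0.00076 for Inhba. The r of Bdnf with Chga was -0.060 in LB and -0.22 in CTL pups alone, and that of Bdnf with Pcsk1 was -0.20 in CTL pups alone.

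Replicate numbers were not taken to pair the pups, since the labels give them no shared source. Residuals of pups with the same sex and number in other rearings had a median correlation of 0.01 (5 of 41 pairs above 0.1), against -0.0068 with other numbers (35 of 312). Within a rearing, males and females of the same number had 0.064 (7 of 20 above 0.1), against -0.0084 with other numbers (15 of 153). Same-numbered pups of a rearing were thus somewhat more alike, and whether they share a source was not tested. The block below gives a number the same term in every rearing, so pairs within a rearing were not modelled. With the number as a block, 967 genes passed between LB and CTL and 1077 between UPS and CTL, Scg2 in UPS had an adjusted p of 0.068 and Nptx2 in LB 0.0496. The data hold no read depth, so the precision of low genes such as Inhba could not be given.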
